A study of Mus musculus and Homo sapiens with 22 samples.

Results

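The 10 genes described here encode fibronectin and the main building blocks of the basement membrane. They are Fn1, Lama1, Lama5, Lamb1, Lamc1, Col4a1, Col4a2, Nid1, Hspg2 and Sparc. They were taken by name, and all 10 were found among the 56196 genes of the count files and passed the filter on low counts that left 15731 genes to test. RNA was counted in 3 wild-type (WT) and 3 Mettl3 knockout (KO) libraries of mouse embryonic stem cells (mESCs). Mettl3 is the catalytic subunit of the enzyme that places N6-methyladenosine (m6A) on mRNA. Both cell lines came from an earlier publication. Separately, m6A sites were mapped by miCLIP2, in which UV light crosslinks an anti-m6A antibody to the RNA, and classified with m6Aboost. One site list came from WT mESCs, and 4 came from purchased poly(A)+ RNA of mouse heart at inputs of 1000, 300, 100 and 50 ng, with 1 library each. The sample titles give the last 3 inputs in µg, whereas the study's methods give ng.

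The basement membrane is a thin sheet of extracellular matrix on which epithelia and many other cells rest. Laminins, each made of an alpha, a beta and a gamma chain, assemble first and bind cell surface receptors. Type IV collagen forms a second network, and nidogen and perlecan join the networks. Fibronectin belongs to the interstitial matrix, is bound by integrins and is assembled into fibrils by cells. In the early embryo, laminin and type IV collagen are made by the endoderm as well as by the pluripotent cells beside it. m6A is found mostly in the motif DRACH, often near stop codons and in 3′ UTRs, and is known to shorten the life of many mRNAs.

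The sequences around some of the sites that recurred between lists are shown first, because they place the predicted m6A at a single base. Each is 21 nt of GRCm38 read 5′ to 3′ on the gene's strand, with the 5 nt centred on the listed A in capitals. The perlecan site printed first was the only one of these genes' sites in all 5 lists. The next 2 were in 3 lists, and the others printed were in the mESC list and the 1000 ng heart list. Further shared sites are not printed, among them a GGACG site in Lamc1 that is outside DRACH.
Hspg2, chromosome 4, position 137569758, + strand, 3′ UTR: tttgtaagAGACTgaggcaag
Hspg2, chromosome 4, position 137569940, + strand, 3′ UTR: agggctcaGAACTgttcccat
Lamc1, chromosome 1, position 153221240, - strand, 3′ UTR: ccctaccgGAACTttcccttg
Lamc1, chromosome 1, position 153332335, - strand, coding sequence: cacgtgtgGGACTccgcccga
Fn1, chromosome 1, position 71653066, - strand, 5′ UTR: ccacctcaGGACTtttcccgc
Fn1, chromosome 1, position 71585755, - strand, 3′ UTR: ctcccacaGGACTcactttgt
Nid1, chromosome 13, position 13511811, + strand, 3′ UTR: acataaaaGAACTtggcctga

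Gene counts lay between 22746733 and 27254245 per library. Both libraries numbered 2 differed from the rest in composition, with 16.1% and 18.0% of gene counts in their 10 most abundant genes against 23.1% to 25.5% elsewhere. Mettl3 itself was counted 560, 698 and 612 times in WT and 462, 669 and 457 times in KO, so the counts mark the knockout only weakly (log2 fold change -0.50, SE 0.14, edgeR adjusted p = 0.0134, and 0.00281 with the replicate block). Of the pluripotency genes examined, all 9 were detected in both genotypes. Nanog stood at 629, 652 and 755 counts scaled to library size (counts per 1e6, CPM) in WT and at 631, 667 and 645 CPM in KO. Dppa5a, Tdgf1 and Utf1 were lower in KO at an adjusted p of 0.01 or less, as were 12.6% of all genes tested. Esrrb had a higher mean in KO (log2 fold change 0.43, edgeR adjusted p = 0.0106, and 0.00191 with the replicate block). With bulk RNA, fewer cells of a type and less RNA per cell cannot be told apart.

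**Figure D1:**
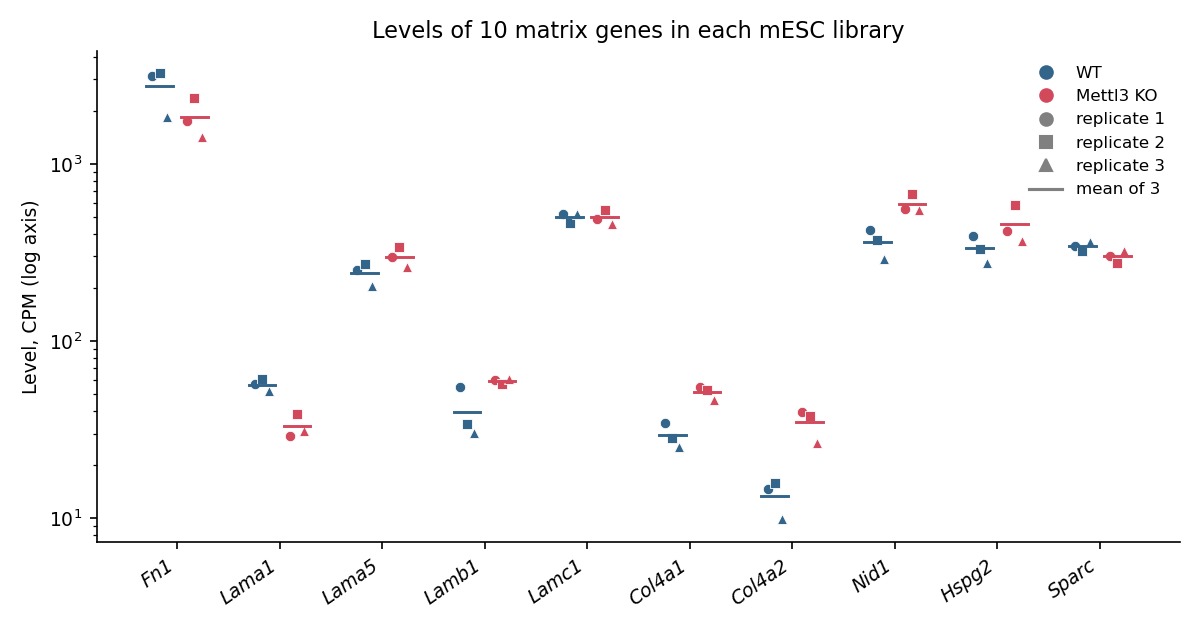
Level of each gene in CPM on a log axis, with 1 point per library (circle, square and triangle for replicates 1, 2 and 3) and a line at the mean of 3. Fn1 lies above all others, Col4a2 lies lowest in WT, and the WT and KO points of Col4a1, Col4a2, Lama1 and Nid1 are apart.

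Fn1 was the most abundant of the 10 by a wide margin and took rank 15 of all tested genes by mean WT CPM. Per kb of the longest coding transcript, its level was 330 ± 95.4 CPM per kb in WT (SD, n = 3). Sparc, a collagen-binding glycoprotein, followed at 150 ± 8.94 CPM per kb, or 90.8 CPM per kb with the length of all exons. Lamc1 (65.6 ± 4.34) and Nid1 (59.5 ± 10.9 CPM per kb) came next and did not differ beyond their spread, nor did Hspg2 (23.5 ± 4.11) and Lama5 (21.4 ± 3.16 CPM per kb). Lamb1 (6.91 ± 2.32) and Lama1 (5.93 ± 0.447 CPM per kb) overlapped too, and with the length of all exons Lamb1 fell to 4.03 CPM per kb, below Lama1 at 5.84. The type IV collagen chains were lowest, with Col4a1 at 4.45 ± 0.715 and Col4a2 at 2.07 ± 0.481 CPM per kb. In KO, Nid1 (97.6 ± 11.98) stood above Lamc1 (65.5 ± 6.05 CPM per kb), and Lama1 was last at 3.46 ± 0.549 CPM per kb.

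Comparing KO with WT asked how these mRNAs differ when m6A is largely missing. No separate lines are named within a genotype, so genotype and cell line cannot be told apart. With calls made at an adjusted p of 0.01 or less by edgeR's quasi-likelihood test, 3 of the 10 genes were higher in KO (Col4a1, Col4a2 and Nid1) and 1 was lower (Lama1). Over all genes tested, 29.7% were called, 17.1% higher and 12.6% lower, so the share of these genes called was near the background. The median log2 fold change of the 10 was 0.38, and that of all tested genes was -0.02. The ranges of WT and KO did not overlap for 6 of the 10, against 56.1% of all genes. Replicates of the same number deviated together across genes for numbers 2 and 3 (correlations of 0.464 and 0.303), but only weakly for number 1 (0.122). A fit that blocked on the replicate number called 5 genes higher and 2 lower. Over all genes this fit called 43.5%, 23.5% higher and 20.0% lower. Its calls were known before the correlations were computed.

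Type IV collagen rose most. Col4a2 was at 14.5, 15.7 and 9.83 CPM in WT and at 39.6, 37.8 and 26.7 CPM in KO. Every KO library was above every WT library, and the fitted level was 2.59-fold higher (log2 fold change 1.38, SE 0.20, adjusted p = 0.000453). Col4a1, its partner in the most widespread collagen IV trimer, was at 34.6, 28.5 and 25.2 CPM in WT and at 54.8, 53.2 and 46.6 CPM in KO. Its groups were apart as well, by 1.75-fold (log2 fold change 0.81, SE 0.14, adjusted p = 0.000969), but without both libraries numbered 2 the adjusted p was 0.0143. The genes lie head to head on chromosome 8 of GRCm38, Col4a1 at chr8:11198423-11312826 on the - strand and Col4a2 at chr8:11312805-11449287 on the + strand. Their first exons overlap on opposite strands, and the reads were counted by strand.

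Markers of endoderm, which makes much collagen IV in the embryo, went both ways, more of them up than down. Their median log2 fold change was 0.95 among those tested. Of 13 such genes 10 were tested, 3 were higher and 1 was lower (4 and 2 with the replicate block), a share called that, as for the genes above, was near the background of 29.7%. Their summed level was 12.05 to 15.1 CPM in WT and 38.3 to 52.1 CPM in KO. Most of that sum in KO was Dab2, an endocytic adaptor, at 1.04, 0.99 and 1.09 CPM in WT and 40.2, 35.7 and 27.7 CPM in KO. Thbd rose from a low level (log2 fold change 1.45, SE 0.35, adjusted p = 0.00713). Foxa2, with 1 or 2 counts per WT library, rose too (log2 fold change 4.04, SE 0.57, adjusted p = 0.000351). Gata4 fell (log2 fold change -1.59, SE 0.31, adjusted p = 0.00206). Hnf4a had a log2 fold change of -1.93 (adjusted p = 0.0181) and was called lower with the replicate block (-2.11, adjusted p = 6.3e-05). Sox17 had 6 to 11 counts per library, and none of the 13 was at 0 in all libraries. The part of such cells in the collagen IV result was not tested. For another assay the study grew these cells on irradiated feeder fibroblasts and removed the feeders before taking RNA. Of 12 feeder fibroblast genes 4 were tested, and 5 had at most 3 counts in every library. Thy1 was higher (log2 fold change 1.19, adjusted p = 0.00206), Pdgfrb was lower (-0.88, adjusted p = 0.00491), and Twist1 was called higher only with the replicate block (1.26 and adjusted p = 0.0145 without it, 1.32 and adjusted p = 0.000614 with it). The sum of the 12 was 10.4 to 15.2 CPM in WT and 13.6 to 15.1 CPM in KO.

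The laminin chains went different ways. Lama1, the alpha chain of the first embryonic laminin, was at 56.8, 60.6 and 52.1 CPM in WT and at 28.9, 38.9 and 31.2 CPM in KO. All KO values were below all WT values, a 1.71-fold lower level (log2 fold change -0.78, SE 0.13, adjusted p = 0.00104). Lama5, the other alpha chain, was at 253, 273 and 203 CPM in WT and at 299, 340 and 261 CPM in KO. Its groups overlapped and it was not called, with a log2 fold change of 0.30 and a 95% interval of -0.01 to 0.62 (adjusted p = 0.104, and 0.0121 with the replicate block). The beta chain Lamb1 was at 55.3, 34.2 and 30.4 CPM in WT and at 60.2, 57.2 and 60.8 CPM in KO. WT replicate 1 lay near the KO libraries, which were close together. Lamb1 was not called (log2 fold change 0.57, SE 0.19, adjusted p = 0.0329), but it was with the replicate block (0.62, adjusted p = 0.000885), with no filter on low counts (0.61, adjusted p = 7.22e-05) and without WT replicate 1 (0.87, adjusted p = 0.00128). The gamma chain Lamc1 was at 519, 462 and 519 CPM in WT and at 489, 550 and 459 CPM in KO. These ranges lay over each other, and the 95% interval of its log2 fold change was -0.26 to 0.26 (adjusted p = 0.992).

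**Figure D2:**
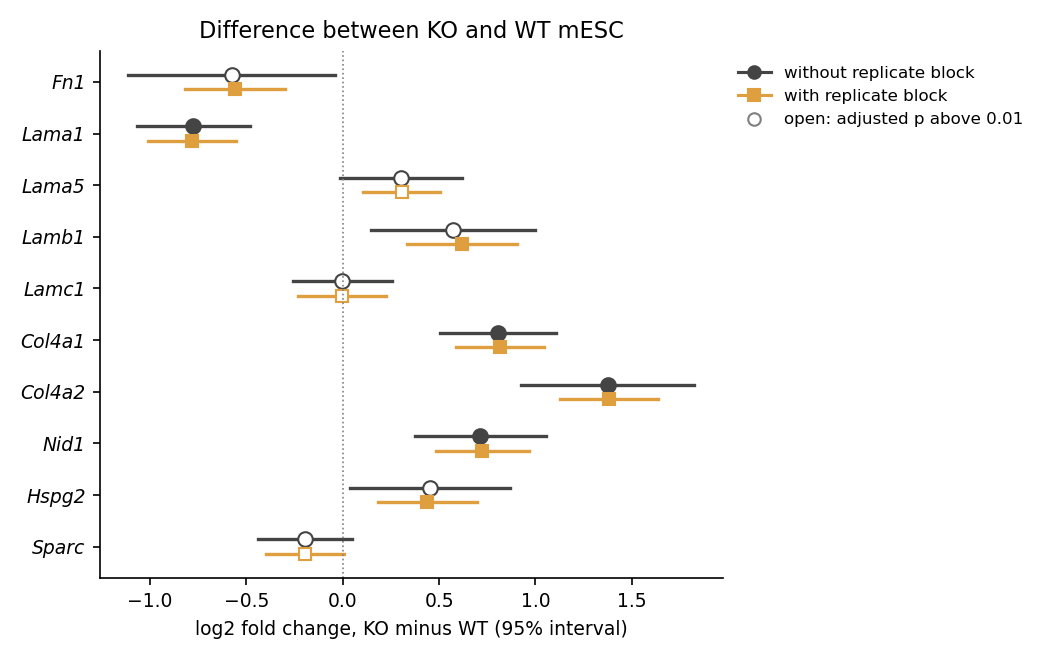
Fitted log2 fold change of each gene (KO minus WT) with its 95% interval, without the replicate block (circles) and with it (squares), where filled symbols have an adjusted p of at most 0.01. Lama1 lies below 0 and Col4a1, Col4a2 and Nid1 above 0 in both fits, while Fn1, Lamb1 and Hspg2 are filled only in the fit with the block.

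Both linkers of the networks had higher means in KO. Nid1, which encodes nidogen and binds the laminin gamma chain, was at 425, 370 and 292 CPM in WT and at 558, 678 and 547 CPM in KO. The groups were apart and the fitted level was 1.64-fold higher (log2 fold change 0.71, SE 0.15, adjusted p = 0.00383). Without KO replicate 1, KO replicate 2 or both libraries numbered 2, its adjusted p was 0.0124, 0.0153 and 0.0302. Hspg2, which encodes the heparan sulfate proteoglycan perlecan, was at 392, 331 and 276 CPM in WT and at 416, 587 and 365 CPM in KO. KO replicate 3 lay below WT replicate 1, and Hspg2 was not called (log2 fold change 0.45, SE 0.19, adjusted p = 0.0696). It was called with the replicate block (0.44, adjusted p = 0.00558) and with no filter on low counts (0.49, adjusted p = 0.00102). Without KO replicate 2, its highest library, the log2 fold change was 0.24, and without both libraries numbered 2 it was 0.21 (adjusted p = 0.269 and 0.385).

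Fn1 was at 3153, 3256 and 1833 CPM in WT and at 1757, 2346 and 1422 CPM in KO. WT replicate 3 fell among the KO libraries, and Fn1 was not called (log2 fold change -0.58, SE 0.24, adjusted p = 0.0733). Within each replicate number KO was lower, at 0.557, 0.721 and 0.776 of WT, and Fn1 was called lower with the replicate block (-0.56, adjusted p = 0.000932), with no filter on low counts (-0.55, adjusted p = 0.000314) and without WT replicate 3 (-0.80, adjusted p = 0.00537). Sparc was at 345, 323 and 364 CPM in WT and at 304, 275 and 322 CPM in KO. Each KO library was below the lowest WT library, KO replicate 3 only just, but the difference did not pass the test (log2 fold change -0.20, 95% interval -0.44 to 0.05, adjusted p = 0.166).

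Ratios within a library show the balance between the genes, and for some the genotypes were apart. Fn1 took 60.1, 63.2 and 50.8% of the counts of the 10 genes in WT and 43.9, 47.3 and 40.2% in KO. Lama5 per Lama1, both per kb, averaged 3.59 ± 0.280 for WT and 7.65 ± 0.882 for KO (SD, n = 3). Lama1 per Lamb1 was 0.913 ± 0.251 and 0.339 ± 0.0648. For these 2 laminin ratios the groups did not overlap, whereas for another 2 they did. Lamc1 per Lamb1 was 10.1 ± 2.92 and 6.39 ± 0.801, and the alpha chains Lama1 and Lama5 summed per Lamc1 came to 0.419 ± 0.0796 and 0.454 ± 0.0180. Col4a2 per Col4a1 was 0.465 ± 0.0877 in WT and 0.686 ± 0.0859 in KO, and Nid1 per Lamc1 was 0.910 ± 0.179 and 1.49 ± 0.0593. The groups were apart for collagen IV and nidogen, although none of these ratios was tested and no background over other gene pairs is given. The summed share of the 10 genes among gene counts was 0.454 ± 0.115% for WT and 0.434 ± 0.0934% for KO, which overlapped.

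**Figure D3:**
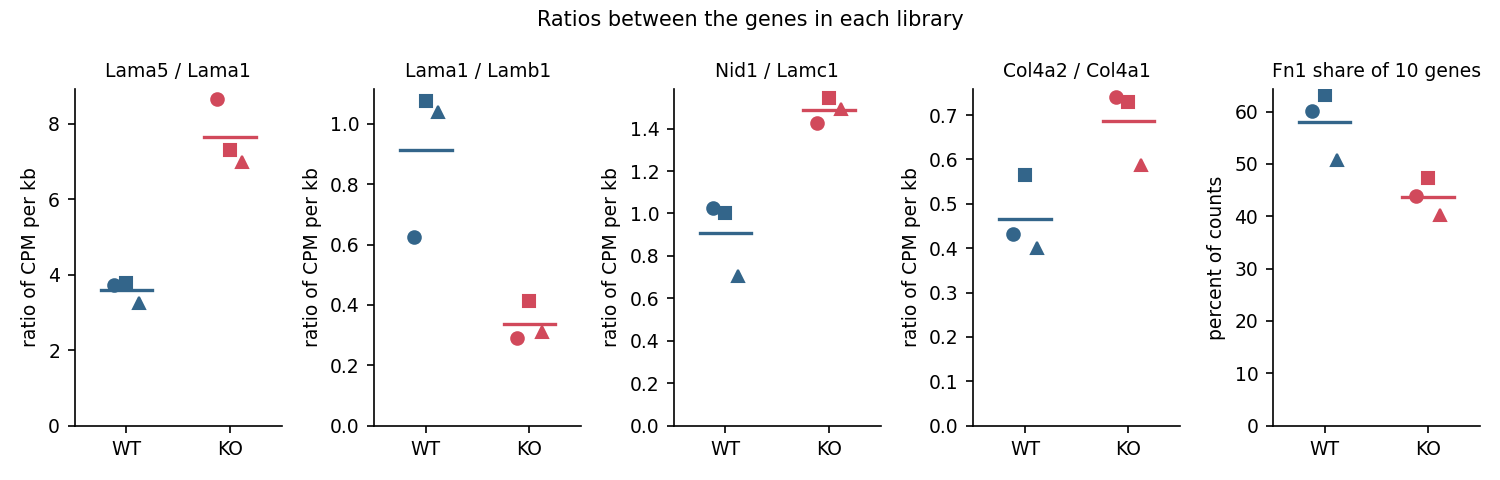
Ratios of CPM per kb between pairs of genes, and the share of Fn1 in the counts of the 10 genes in percent, with 1 point per library (circle, square and triangle for replicates 1, 2 and 3) and a line at the mean. The 5 panels show quantities whose WT and KO points do not overlap. Lamc1 per Lamb1 and the summed alpha chains per Lamc1, which overlapped, are not drawn.

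Other genes of the basement membrane, from a list of 32, gave 9 higher and 1 lower among 25 tested (12 and 1 with the replicate block), with a median log2 fold change of 0.81. Over all genes tested the shares were 17.1% higher and 12.6% lower, and 23.5% and 20.0% with the block. Pxdn, which encodes the peroxidase that crosslinks collagen IV, rose from 20.0, 21.4 and 17.01 CPM in WT to 36.7, 47.7 and 42.3 CPM in KO (log2 fold change 1.12, SE 0.14, adjusted p = 0.00018). Npnt, an integrin ligand, rose 4.05-fold (log2 fold change 2.02, SE 0.26, adjusted p = 0.00023). Lama3, another alpha chain, was at 44.1, 47.9 and 46.1 CPM in WT and fell to 7.48, 15.0 and 11.7 CPM in KO (log2 fold change -2.01, SE 0.21, adjusted p = 7e-05). Nid2, the second nidogen, was not called (log2 fold change -0.22, SE 0.14, adjusted p = 0.214).

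Among receptors, 7 of 20 tested genes were higher and 1 was lower (9 and 3 with the replicate block), with a median log2 fold change of 0.37. Shares over all genes tested, for this list and the next, were 17.1% higher and 12.6% lower, or 23.5% and 20.0% with the block. Dag1, which encodes the laminin receptor dystroglycan, was at 172, 164 and 209 CPM in WT and at 420, 456 and 370 CPM in KO, 2.29-fold higher (adjusted p = 9e-05). Itga5, the alpha subunit of the fibronectin receptor, rose 1.36-fold (adjusted p = 0.00614), and Bcam, a receptor for laminin alpha 5, fell 1.55-fold (adjusted p = 0.0049). Itgb1, the beta subunit shared by many of these receptors, had a log2 fold change of -0.33 (adjusted p = 0.0228, and 0.00673 with the replicate block). Of 25 tested genes for collagen modification, crosslinking and turnover, 7 were higher and 2 were lower (10 and 6 with the replicate block), with a median of 0.16. Plod1, a collagen lysyl hydroxylase, rose 1.91-fold (adjusted p = 0.000186), Tgm2, a transglutaminase, rose as well (log2 fold change 1.27, adjusted p = 0.0012), and Colgalt1, a collagen galactosyltransferase, fell 1.45-fold (adjusted p = 0.00184). P4hb had a log2 fold change of -0.43 (adjusted p = 0.0464, and 0.00258 with the replicate block).

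The m6A lists were used to ask where these mRNAs carry sites. In mESCs, 26 exonic sites lay in 5 of the 10 genes, and in heart at 1000 ng 34 sites lay in 7. For comparison, 42.0% of the genes tested had an exonic site in the mESC list and 50.2% in the heart list. Each list is 1 result with no replicate spread and no read depth, so a gene without a site is not shown to lack m6A. Of the mESC sites 1 was in a 5′ UTR, 11 were in coding sequence and 14 in 3′ UTRs, and 14 were in the last exon. Of the heart sites 1, 11 and 22 were in these regions, and 27 were in the last exon. DRACH held 92.3% of the mESC sites (Wilson 95% interval 75.9 to 97.9%, counting error only) and 88.2% of the heart sites (73.4 to 95.3%). The pentamer GGACT was the most frequent in both lists, at 7 sites each.

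**Figure D4:**
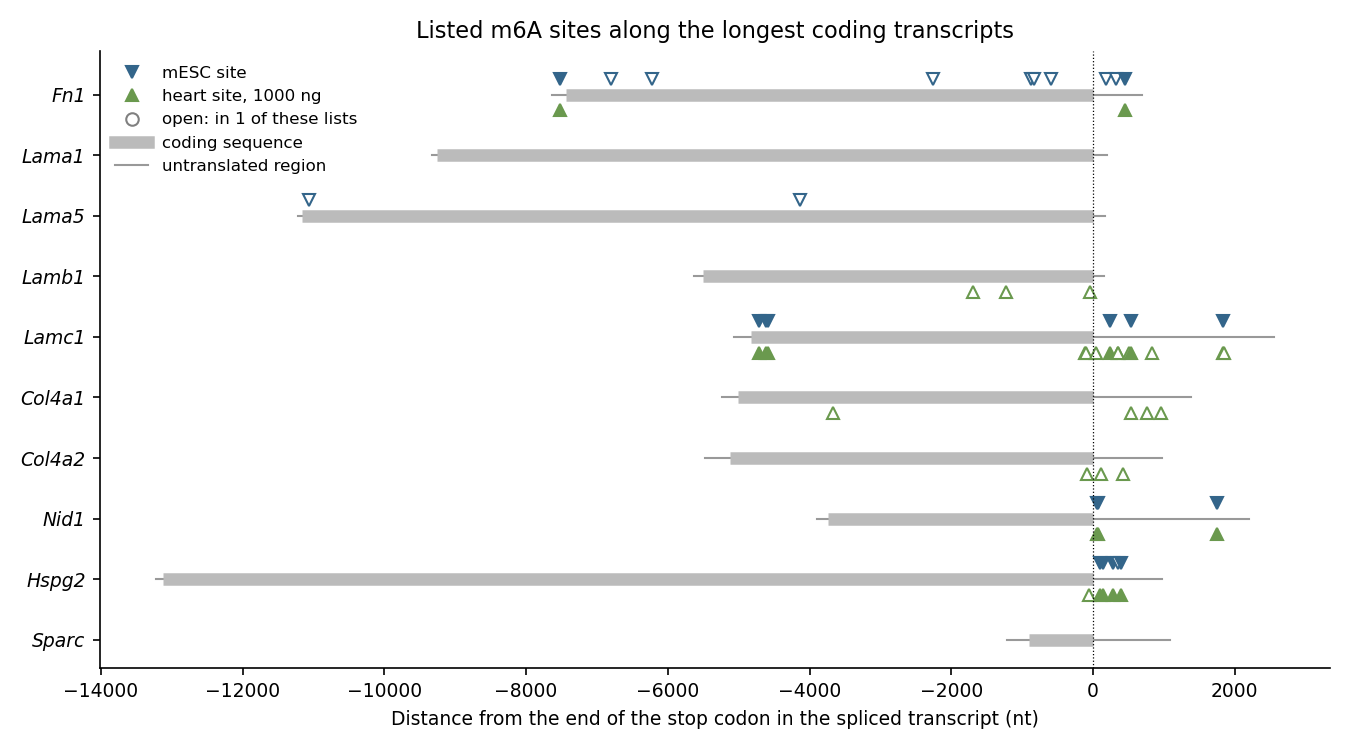
Listed m6A sites along the longest coding transcript of each gene, in nt from the end of the stop codon, with mESC sites above and 1000 ng heart sites below each line, and filled symbols for sites in both lists. Hspg2 sites gather near the stop codon, Nid1 sites all lie in the 3′ UTR, Fn1 sites in mESCs spread over the transcript, and Lama1 and Sparc have none.

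Fn1 had the most sites in mESCs, 10 along 8315 nt, of which 1 was in the 5′ UTR, 6 were in coding sequence and 3 in the 3′ UTR. That is 1.20 sites per kb, against a median of 0.878 over tested genes with a site. Coding sites of Fn1 held its lowest scores, at percentiles 2.4, 3.7, 12.3 and 12.9 of the mESC list, and also its highest, at 84.9. In heart 2 Fn1 sites were listed, at its 5′ UTR and 3′ UTR positions printed above. The remaining 8 were in the mESC list only. The level of these genes in heart was not measured here, so the numbers of sites in the tissues are given side by side only.

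Lamc1, which did not differ between WT and KO, had 6 sites in mESCs and 14 in heart. All 6 mESC sites recurred in heart. They fell into a group of 3 in the first exon, within coding sequence, and 3 in the 3′ UTR of the 2808 nt last exon, at 233, 536 and 1837 nt after the stop codon. The GAACT site at 233 nt ranked at percentile 96.1 of the 1000 ng heart scores. It was also in the 300 ng list, but only at percentile 9.66 there. Lamc1 alone held 14 of the 34 heart sites.

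Hspg2 had 5 sites in each of the 2 lists, and 4 were the same. All 5 mESC sites lay within 395 nt after the stop codon, although the transcript is 14187 nt long and holds 214 of its 235 DRACH motifs in coding sequence. The AGACT site 94 nt after the stop codon was at percentile 94.0 of the mESC scores and 99.6 of the heart scores, and was listed at 300, 100 and 50 ng too. Nid1 had 3 sites, the same 3 in both tissues, at 59, 70 and 1744 nt into the 3′ UTR. Lama5 had 2 mESC sites in coding sequence, 1 of them in its first exon, and none in heart.

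Col4a1, Col4a2 and Lamb1 had no listed site in mESCs and 4, 3 and 3 sites in heart at 1000 ng. Their mean levels in WT mESCs were 29.4, 13.4 and 40.0 CPM. Among tested genes within 1.5-fold of these levels, 64.9, 46.0 and 71.2% had a site in mESCs. Here and below, genes were matched in CPM and not per kb, so coverage per nt was not matched. Of the genes that rose in KO, then, Nid1 had sites and the collagen IV genes had none listed. Lama1, which fell, had none in any list, with 76.0% of genes at its level holding one. Sparc also had none in any list, although it was at 344 CPM in WT, where 84.1% of genes had a site, and its 2300 nt transcript holds 56 DRACH motifs.

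In all, 15 positions were shared by the mESC and 1000 ng heart lists, 57.7% of the mESC sites and 44.1% of the heart sites, in Fn1, Lamc1, Nid1 and Hspg2. Lower inputs listed fewer sites in these genes, namely 7 in the list of 300 ng and a single one in each of the lists of 100 and 50 ng. Of the 7, 6 were at positions in the 1000 ng list. The exception was a GGACT site in the 5′ UTR of Col4a2. Of 8 cardiomyocyte genes, 5 had sites in the 1000 ng heart list and none had any in the mESC list. Ttn, the giant sarcomere protein gene, held 195 of their 232 heart sites. Of the 9 pluripotency genes, 7 had sites in mESCs and 2 in heart at 1000 ng. Among them, Sox2 held 15 in mESCs and none in heart.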

How the data were processed

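Gene counts of 6 mESC RNA-seq libraries and 5 mouse site lists were used as the authors deposited them. The counts are raw whole numbers. The authors mapped single-end reads with STAR 2.6.1b to GRCm38 and counted them per GENCODE gene on the reverse strand with HTSeq 0.12.4. Lines that name no gene, which held 36.7 to 42.7% of the counts in each file, were left out. For miCLIP2 the submitters' processing notes name STAR 2.7.3a, UMI-tools 1.0.0, SAMtools 1.9 and bedtools 2.27.1, and the methods name PureCLIP and m6Aboost. The score deposited by the authors is the m6Aboost prediction in the mESC list, whereas the heart lists give no scale for it, so heart scores served for ranks inside a list alone. The human list, the KO miCLIP2 samples and per-replicate miCLIP2 data were not used here.

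The test of KO against WT used edgeR 4.0.16 under R 4.3.3 (filterByExpr filter, TMM factors, quasi-likelihood F test, Benjamini-Hochberg over 15731 genes, called at 0.01). The biological coefficient of variation was 0.159. The series gives biological replicates. Correlations of same-numbered deviations from the group means were 0.122, 0.464 and 0.303, all above the limit of 0.1 at which numbers were taken to pair the libraries. The blocked calls were already known when these correlations were computed. The pairing is weak for number 1, since WT replicate 3 and KO replicate 1 correlated at 0.110. No replicates agreed within sampling noise. In simulated data on 15731 genes, the test recovered 67% of 2-fold and 100% of 4-fold changes. CPM use TMM library sizes. Sites (Python 3.11.15, pysam 0.24.0) were placed on GENCODE M21, which is older than the authors' release, and sequences come from RefSeq GRCm38.p6.

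Named genes are the 10 genes, Mettl3, and from each list the 3 called genes and the uncalled gene of highest mean CPM, plus 5 genes of most similar pattern. Cardiomyocyte genes served for sites only. Esrrb, Foxa2, Sox17, Ttn and Sox2 were named after their values were seen. The members and lists were chosen with earlier results of these data known. Alternatives were DESeq2 1.42.0, its size factors, library size only, other filters and thresholds, the replicate block, omitted libraries, other site rules and, for levels, all exons. The last, the block at 0.05 and omission of both libraries numbered 3 were chosen after seeing the data.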

Additional observations from a re-analysis of the deposited data

How the results depend on the processing

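Of the 10 genes, Col4a2 and Lama1 kept their call in all 16 alternatives. The 4 genes called became 7 with no filter on low counts (5 higher, 2 lower), 7 with the replicate block (5 higher, 2 lower), 8 with the replicate block at an adjusted p of 0.05 (6 higher, 2 lower) and 2 without both libraries numbered 2 (1 higher). Leaving out 1 library gave 3 to 5 genes called, 2 to 4 higher and 1 to 2 lower. Over all genes, 4669 of 15731 tested were called. The calls became 6406 of 31057 with no filter on low counts. With the replicate block they became 6837 of 15731, and 8881 of 15731 with the block at 0.05. At 0.05 without the block they became 7336 of 15731, and without both libraries numbered 2 they became 3042 of 15679. With 1 library left out they were 2761 to 5412, of 16083 to 16337 tested, lowest without KO replicate 1. The log2 fold change of Lamc1 was near 0 and changed sign to 0.110 with library size only, 0.033 with no filter, 0.026 where every library had 10 or more counts and 0.091 without both libraries numbered 3. With 1 library left out it ranged from -0.070 to 0.064. Scaling by library size only took the median over tested genes from -0.02 to 0.08 on the log2 scale and the share of calls that were higher from 57.5 to 71.0%. The 26 mESC sites became 15 at or above the list's median score, the 15 shared sites became 8, and the 34 heart sites became 7 in the 300 ng list. The causes were not tested. DRACH shares under RRACH were 80.8 and 82.4%. Depth behind single sites is unknown.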

Other observations

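The 5 genes whose log2 CPM followed the mean standardised level of the 10 genes most closely over the 6 libraries, among 4024 genes with a mean of at least 50 CPM, were Impad1, Zbtb44, Fgf4, Irf2bp2 and Zfp236, with Pearson's r of 0.988, 0.984, 0.970, 0.964 and 0.964. The 6 libraries share the genotype contrast and their sequencing run, and the 10 genes differ in direction, so these values describe the libraries only. None of the 5 was called between KO and WT (edgeR adjusted p 0.0868 to 0.491).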
